A study of Mus musculus with 7 samples.

Results

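A set of 10 imprinted genes, linked to the quiescence or the function of hematopoietic stem cells or lying in the same chromosome domains as such genes, was examined in Lin-Sca1+Kit+ (LSK) cells of the bone marrow. The genes were H19, Igf2, Igf2r, Cdkn1c, Dlk1, Meg3, Grb10, Ndn, Peg3 and Gnas. They were chosen by name for their known roles, with earlier results of these data known. They made up 10 of the 24421 gene symbols counted. RNA-seq was performed on LSK cells from 4 recipients of Ddx41+/+ marrow (replicates 1 to 4) and 3 recipients of Ddx41+/- marrow (replicates 6 to 8). Ddx41 encodes a DEAD-box RNA helicase. The donors of both groups carried RosaCreERT2, a tamoxifen-activated recombinase expressed from a ubiquitous promoter, alone or with a floxed Ddx41 allele. BoyJ recipients were lethally irradiated, received donor marrow and were given tamoxifen at 1 mg on 5 days in each of 2 rounds. The marrow was taken at week 8 after the transplant, and each sample is the sorted LSK fraction of a single mouse. The Ddx41+/- cells thus lost 1 allele in adult marrow under transplantation stress, and Ddx41+/+ cells met the same recombinase and drug. A gate on donor cells is not stated in the descriptions, so a share of recipient cells with both Ddx41 alleles intact cannot be told apart from the donor cells.

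An imprinted gene is read mainly from the copy inherited from 1 parent, because DNA methylation set in the egg or the sperm marks a control region and the mark is kept through cell divisions. H19, Igf2r, Cdkn1c, Meg3 and most Grb10 transcripts come from the maternal copy, and Igf2, Dlk1, Ndn and Peg3 from the paternal copy. Gnas is read from both copies in most tissues, while its upstream starts are imprinted. Several of these genes act as brakes on growth in long-term hematopoietic stem cells, through the cyclin-dependent kinase inhibitor p57 (Cdkn1c) and through restraint of insulin-like growth factor signaling (H19, Igf2r, Grb10). Counts per gene do not separate the parental copies, so the values below are sums over both.

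The microRNA pair encoded within H19 is shown because it is the route by which H19 RNA is known to lower the IGF1 receptor. Mir675 lies at chromosome 7, 142577078 to 142577133 of GRCm38 over both arms, on the minus strand. The mature sequences of RefSeq are printed with the seed, bases 2 to 8, in capitals. The arms have different seeds. The row of Mir675 itself held 0 counts in all 7 samples, and mature microRNAs, which lack a poly(A) tail, are not measured by such libraries.
mmu-miR-675-5p: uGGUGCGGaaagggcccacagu
mmu-miR-675-3p: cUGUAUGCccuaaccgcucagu

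The promoters of 4 genes from RefSeq (GRCm38.p6, 250 bases before to 50 after the start, 5′ to 3′ on the strand of the gene) are shown for their CG pairs, the sites of DNA methylation. A promoter shown need not be the control region that carries the imprinting mark of its domain. CG pairs are in capitals. Gnas and Igf2r are read at high and middle levels in LSK cells, Dlk1 near the detection limit, and Peg3 had no count. Among 32851 promoters of this length the median was 7 CG pairs. The most downstream start of Gnas, chr2:174329756-174330055 on the plus strand, held 40 CG pairs, and 96.1% of promoters held fewer. The upstream entries of Gnas held 16, 27 and 28 CG pairs and are not shown. Igf2r, chr17:12769657-12769956 on the minus strand, held 34, and 92.3% held fewer. Dlk1, chr12:109452573-109452872 on the plus strand, held 9, and 54.2% held fewer. Peg3, chr7:6730370-6730669 on the minus strand, held 13, and 62.1% held fewer. Methylation was not measured, so the sequences give the sites that could be methylated and not their state. An entry was found for 8 of the 10 genes. H19 and Cdkn1c were the other two.
Gnas: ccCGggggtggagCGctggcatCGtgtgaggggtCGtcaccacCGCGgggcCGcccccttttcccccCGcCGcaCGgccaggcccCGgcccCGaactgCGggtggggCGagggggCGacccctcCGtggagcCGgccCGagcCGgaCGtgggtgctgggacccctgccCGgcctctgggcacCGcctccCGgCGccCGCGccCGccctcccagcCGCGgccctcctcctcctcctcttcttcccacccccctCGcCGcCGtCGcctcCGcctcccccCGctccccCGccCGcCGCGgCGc
Igf2r: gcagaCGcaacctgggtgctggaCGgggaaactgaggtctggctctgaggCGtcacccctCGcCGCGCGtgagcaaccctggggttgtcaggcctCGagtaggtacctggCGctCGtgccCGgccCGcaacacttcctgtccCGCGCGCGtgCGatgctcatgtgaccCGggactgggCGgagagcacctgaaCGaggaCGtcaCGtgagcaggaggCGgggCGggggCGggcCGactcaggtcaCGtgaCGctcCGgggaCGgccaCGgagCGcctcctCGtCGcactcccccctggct
Dlk1: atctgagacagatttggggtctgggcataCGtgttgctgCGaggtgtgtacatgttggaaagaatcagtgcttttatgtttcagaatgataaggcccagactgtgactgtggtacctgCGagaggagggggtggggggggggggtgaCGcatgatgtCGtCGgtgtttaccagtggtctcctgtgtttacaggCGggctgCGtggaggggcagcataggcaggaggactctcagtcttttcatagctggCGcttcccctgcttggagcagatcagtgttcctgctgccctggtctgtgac
Peg3: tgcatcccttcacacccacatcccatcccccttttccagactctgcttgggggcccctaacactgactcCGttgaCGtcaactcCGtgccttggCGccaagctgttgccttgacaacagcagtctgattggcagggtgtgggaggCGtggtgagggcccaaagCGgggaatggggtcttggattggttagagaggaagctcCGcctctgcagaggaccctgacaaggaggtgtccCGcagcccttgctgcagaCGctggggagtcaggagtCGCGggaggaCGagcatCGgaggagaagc

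Libraries held 32234499 to 43751290 counts, and depth did not separate the genotypes (36.8 ± 3.65 mega-counts, SD, n = 4, against 39.3 ± 4.69 mega-counts, SD, n = 3, exact permutation p = 0.457, two-sided). Ddx41 itself was lower in Ddx41+/- samples, at 68.8% of the Ddx41+/+ level in counts scaled to library size (CPM). Its log2 fold change was -0.54 (edgeR quasi-likelihood test with Benjamini-Hochberg adjustment, adjusted p = 0.0052), and -0.51 without Ddx41+/- replicate 7. That sample stood apart on the first principal component (31.1% of the variance), at 35.7 against 0.065 and 0.24 for the other Ddx41+/- samples and -12.9 to -5.07 for Ddx41+/+. For each of the 7 tested imprinted genes the value without it is given. All 10 defining genes of the LSK sort were above 1 CPM on average. They summed to 1841.8 to 2012.53 CPM in Ddx41+/+ and 1676.35 to 1840.85 CPM in Ddx41+/-, narrowly without overlap. Of the 10, 9 had a negative log2 fold change, beside 6828 of the 13340 genes tested. At an unadjusted p under 0.05 (edgeR), 6 were lower (60%), beside 4.93% of all genes tested. Gata2 was lower after the adjustment (edgeR adjusted p = 0.0471, and 0.169 without Ddx41+/- replicate 7). Over all 13340 genes tested, 0.217% had an edgeR adjusted p under 0.05 and 10.6% an unadjusted p under 0.05. Summed over 15 genes of long-term stem cells, expression was 427.0 to 567.5 CPM in Ddx41+/+ and 382 to 421.8 CPM in Ddx41+/-, without overlap. Of the 15, 14 had a negative log2 fold change, 7 were lower at an unadjusted p under 0.05 (46.7%) and 1, Mycn, passed the adjustment (edgeR adjusted p = 0.0157, and 0.0924 without Ddx41+/- replicate 8). DESeq2 called Mycn and Hlf. Summed over 9 genes of neutrophils and their granules, expression was 737 to 1249.9 CPM in Ddx41+/+ and 1330.1 to 2276 CPM in Ddx41+/-, also without overlap. Of these, 8 were higher at an unadjusted p under 0.05 (88.9%, beside 5.7% of all genes tested), while Cxcr2 had a lower mean in Ddx41+/-. Mmp9 passed the adjustment (edgeR adjusted p = 0.00677), with DESeq2 calling Mmp8 as well. Fewer cells of a type and less RNA per cell cannot be told apart in these bulk samples.

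The transcript levels of the 10 genes spanned the whole range of the libraries. CPM values were divided by the exon length of GENCODE M21 to compare genes. This length joins the exons of all annotated transcripts, so a gene read mainly from a shorter transcript is placed too low. Gnas stood first at 54.9 ± 2.71 CPM per kb (SD, n = 7), and 99.3% of symbols had fewer counts. Grb10 followed at 3.33 ± 0.373 CPM per kb (SD, n = 7) and Igf2r at 2.35 ± 0.363 CPM per kb (SD, n = 7). Their sample ranges met, so these neighbours in the order were not separated. Cdkn1c was at 1.03 ± 0.548 CPM per kb (SD, n = 7), its highest sample within the range of Igf2r. Ndn, H19 and Dlk1 lay lower, at 0.164 ± 0.0771, 0.11 ± 0.127 and 0.0567 ± 0.036 CPM per kb (SD, n = 7), and their ranges overlapped from each to the next. Igf2 at 0.0100 and Meg3 at 0.00727 CPM per kb were at the detection limit, and Peg3 had no count. The sample ranges of neighbours were separate at only 2 steps in this order, from Gnas to Grb10, where the level was 16.5 times higher, and from Cdkn1c to Ndn, where it was 6.29 times higher. By parental origin, the paternally expressed Igf2, Dlk1, Ndn and Peg3 were all below 0.3 CPM per kb in each sample, while 3 of the 5 maternally expressed genes were above 0.5 CPM per kb in each. This grouping was made with the values known. Counted as reads, 91.7% of the summed CPM of the 10 genes was Gnas.

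**Figure D1:**
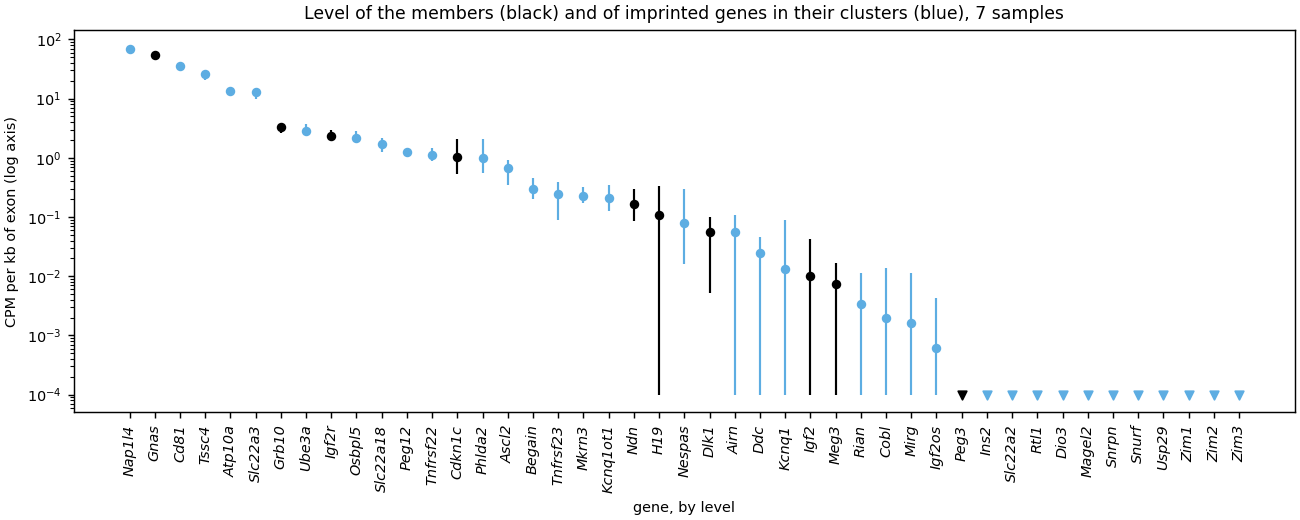
Level of the 10 genes (black) and of imprinted genes in their clusters (blue), as CPM per kb of exon on a log axis, with points for the mean of 7 samples and lines from the lowest to the highest sample. Lines that reach the bottom of the axis include a sample with no count, and triangles at the bottom are genes with no count in any sample, Peg3 among them, while Gnas at 54.9 CPM per kb stands second.

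Next, it was asked whether loss of 1 Ddx41 allele changed these genes. Between genotypes, none of the 10 passed the test. Of the 10, 7 were expressed highly enough to be tested and 3 (Igf2, Meg3 and Peg3) were not. With edgeR, 0 of the 7 had an adjusted p under 0.05, beside 29 of 13340 genes (0.217%, with 16 genes or 0.12% higher and 13 genes or 0.0975% lower), and 0 had an unadjusted p under 0.05, beside 1418 genes (10.6%). DESeq2 called 0 of them, beside 164 genes (1.23%), but gave no adjusted p for Dlk1 and H19. The CPM ranges of the genotypes overlapped in all 7, while 10.1% of all genes tested had ranges without overlap. The log2 fold change was negative in 6 and positive in Igf2r, with a median of -0.23 beside -0.0048 over all genes tested. Dlk1 and H19 passed the filter on low counts through a few samples, and Dlk1 through Ddx41+/+ samples alone, so the median is a description only. The adjusted p-values of the 7 ranged from 0.526 to 0.925 (edgeR).

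**Figure D2:**
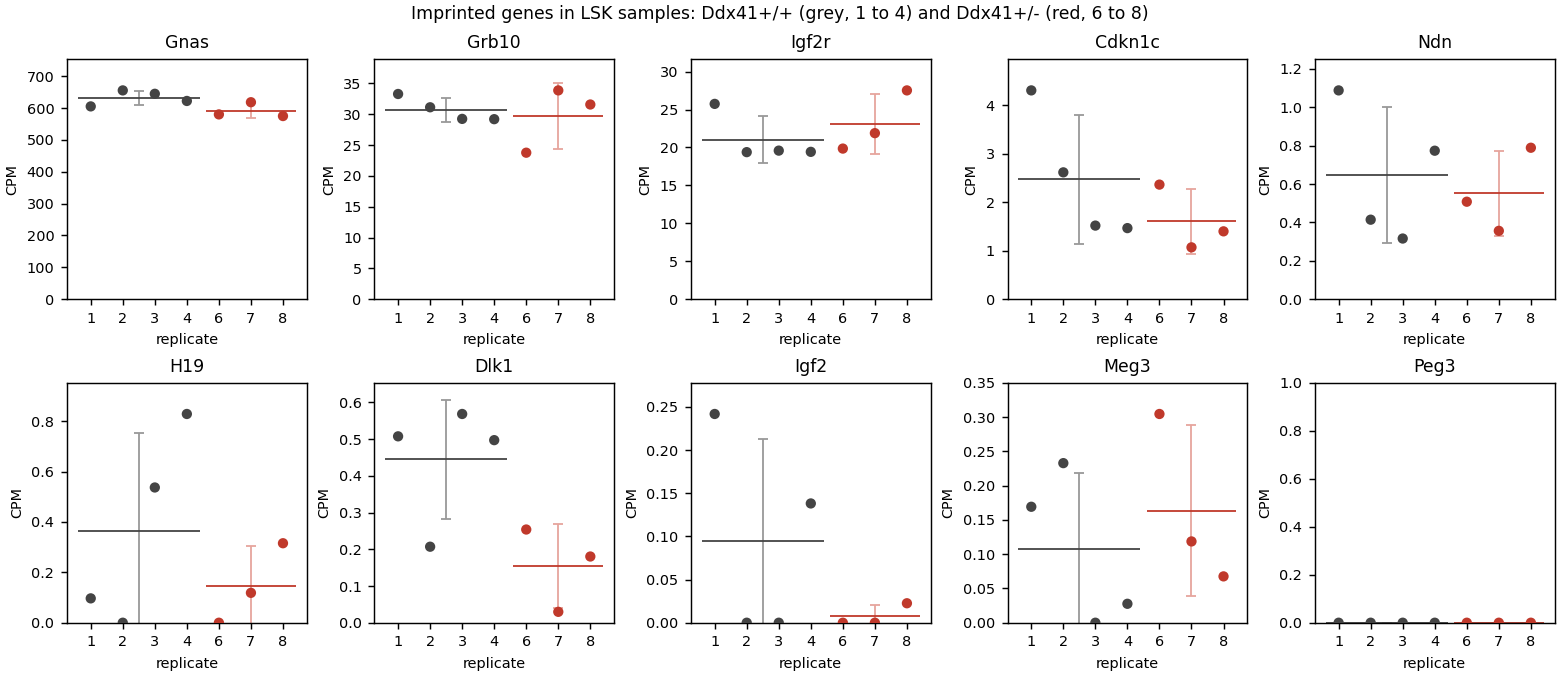
CPM of each of the 10 genes in each sample, Ddx41+/+ replicates 1 to 4 in grey and Ddx41+/- replicates 6 to 8 in red, with horizontal lines for the genotype means, error bars for the SD and a vertical axis from 0 for each gene. The points of the genotypes overlap in each gene, and Cdkn1c and Igf2r are high in Ddx41+/+ replicate 1.

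Cdkn1c (ENSMUSG00000037664, chromosome 7, 143458339 to 143461050) encodes p57, the inhibitor of G1 cyclin-dependent kinases on which stem cell dormancy is known to depend. In order of replicate number, it was measured at 4.3, 2.61, 1.52 and 1.46 CPM in Ddx41+/+ and at 2.36, 1.07 and 1.4 CPM in Ddx41+/-, and values per sample are given in this order throughout. Replicates 1 and 2 of Ddx41+/+ were the highest of the 7 samples, and replicates 3 and 4 lay below Ddx41+/- replicate 6. Means were 2.47 ± 1.33 CPM (SD, n = 4) and 1.61 ± 0.672 CPM (SD, n = 3), and Ddx41+/- samples held 65.0% of the Ddx41+/+ mean. The log2 fold change was -0.62 (SE 0.41, 95% interval -1.50 to 0.25, edgeR adjusted p = 0.633), and the interval runs from 0.354-fold to 1.19-fold. Without Ddx41+/+ replicate 1 it was -0.21, and without Ddx41+/- replicate 6 it was -1.01 (edgeR adjusted p = 0.369). Without Ddx41+/- replicate 7 it was -0.41.

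The stem cell genes were set beside Cdkn1c. Their summed CPM was 567.5, 533.9, 461.9 and 427.0 in Ddx41+/+ against 407, 421.8 and 382 in Ddx41+/-. The samples with the highest and second highest Cdkn1c, Ddx41+/+ replicates 1 and 2, were also first and second in the mean log2 CPM of these 15 genes relative to their averages, at 0.47 and 0.22. The sample next in Cdkn1c, Ddx41+/- replicate 6, was last in that score, at -0.31. The part of the stem cell genes in the Cdkn1c values was not tested. In GENCODE M21, 30.7% of the exon bases of Cdkn1c are shared with an antisense transcript, Gm44732, which has no row of its own here. Use of strand in the counting is not stated.

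Gnas (ENSMUSG00000027523, chromosome 2, 174284320 to 174346744) encodes the stimulatory G protein subunit that couples receptors to adenylyl cyclase, and stem cells are known to need it to engraft. Its values were 605, 656, 645 and 622 CPM in Ddx41+/+ and 580.2, 618 and 575 CPM in Ddx41+/-. The lowest values were those of Ddx41+/- replicates 8 and 6, and replicate 7 lay within the Ddx41+/+ range. The means differed little, at 632 ± 22.6 CPM (SD, n = 4) and 591 ± 23.7 CPM (SD, n = 3). With a log2 fold change of -0.096 (SE 0.058, edgeR adjusted p = 0.583) and a 95% interval from 0.859-fold to 1.02-fold, this was the narrowest interval of the 7 tested genes. It was between -0.13, without Ddx41+/- replicate 7, and -0.076 in 15 alternative fits. The smallest unadjusted p among them was 0.033, with limma-voom and sample quality weights, where the adjusted p was 0.361. The row pools several starts, of which RefSeq lists 4 promoter entries, and shares 8.83% of its exon bases with the antisense Nespas and 13.1% with Gm20721, also on the opposite strand, which has no row here.

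Igf2r (ENSMUSG00000023830, chromosome 17, 12682406 to 12769664) encodes the receptor that carries IGF2 to the lysosome and so removes it. It was read at 25.7, 19.4, 19.6 and 19.4 CPM in Ddx41+/+ and at 19.9, 21.9 and 27.5 CPM in Ddx41+/-. The 3 other Ddx41+/+ samples lay at nearly the same level and replicate 1 lay apart above them, while Ddx41+/- replicate 8 was the highest of all. Means were 21.0 ± 3.14 CPM (SD, n = 4) and 23.1 ± 3.97 CPM (SD, n = 3), a log2 fold change of 0.13 (SE 0.13, 95% interval 0.902-fold to 1.34-fold, edgeR adjusted p = 0.777). The sign rested on 1 library, since the value without Ddx41+/- replicate 8 was -0.013. It was 0.25 without Ddx41+/+ replicate 1 and 0.17 without Ddx41+/- replicate 7.

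Grb10 (ENSMUSG00000020176, chromosome 11, 11930508 to 12038683) encodes an adaptor that binds the insulin and IGF1 receptors and dampens their signal. It was measured at 33.3, 31.1, 29.3 and 29.2 CPM in Ddx41+/+ and at 23.8, 33.9 and 31.6 CPM in Ddx41+/-. The Ddx41+/- samples held both the lowest and the highest value. Means were 30.7 ± 1.94 CPM (SD, n = 4) and 29.7 ± 5.3 CPM (SD, n = 3), with a log2 fold change of -0.048 (SE 0.11, 95% interval 0.818-fold to 1.14-fold, edgeR adjusted p = 0.918). The sign again rested on single libraries, at 0.090 without Ddx41+/- replicate 6 and -0.15 without Ddx41+/- replicate 7.

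H19 (ENSMUSG00000000031, chromosome 7, 142575529 to 142578143) is a long noncoding RNA of dormant stem cells and the host of the microRNA printed above. It had 4, 0, 17 and 30 counts in Ddx41+/+ and 0, 4 and 14 counts in Ddx41+/-. In each genotype 1 sample had no count, and a count of 0 allows up to 0.0776 CPM in Ddx41+/+ replicate 2 and 0.0762 CPM in Ddx41+/- replicate 6. As CPM the values were 0.0967, 0, 0.537 and 0.829 against 0, 0.119 and 0.316. The log2 fold change of -1.26 (SE 1.16, edgeR adjusted p = 0.753) had a 95% interval from 0.074-fold to 2.34-fold, too wide to show a change of a few fold at this depth. Between samples of a genotype the biological coefficient of variation was 88.5%, against 48.0% for genes of that level. Without Ddx41+/- replicate 7 the log2 fold change was -1.15.

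Igf2 (ENSMUSG00000048583, chromosome 7, 142650766 to 142666816) encodes the fetal growth factor that H19 and Igf2r restrain. It had 10, 0, 0 and 5 counts in Ddx41+/+ and 0, 0 and 1 counts in Ddx41+/-, 16 in all. Of these, 15 came from Ddx41+/+ replicates 1 and 4, and Igf2 was too low in all samples to be tested. In the samples with a count of 0, up to 0.0762 to 0.0948 CPM is allowed, depending on the depth of the library. The annotation gives 62.8% of its exon bases also to Gm49394, which has no row here. Ins2, its neighbour, had no count.

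Dlk1 (ENSMUSG00000040856, chromosome 12, 109452823 to 109463336) encodes a membrane protein related to Notch ligands. It had 21, 8, 18 and 18 counts in Ddx41+/+ and 10, 1 and 8 counts in Ddx41+/-. As CPM these were 0.508, 0.207, 0.569 and 0.497 against 0.254, 0.0297 and 0.18. Ddx41+/+ replicate 2 lay below Ddx41+/- replicate 6, and the other Ddx41+/+ samples lay above all Ddx41+/- samples. The log2 fold change was -1.47 (SE 0.77, 95% interval 0.116-fold to 1.12-fold, edgeR unadjusted p = 0.0743, adjusted p = 0.526), the smallest p of the 10 genes. Dlk1 reached the tested genes only because 3 Ddx41+/+ samples and 0 Ddx41+/- samples were above the filter, so a lower Ddx41+/- value was built into its entry. Without Ddx41+/- replicate 7 the log2 fold change was -1.03 (edgeR adjusted p = 0.855). Without Ddx41+/+ replicate 2 the unadjusted p was 0.048.

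Meg3 (ENSMUSG00000021268, chromosome 12, 109541001 to 109571726) is the maternal long noncoding RNA of the same domain, and its locus is known to protect fetal liver stem cells. It had 7, 9, 0 and 1 counts in Ddx41+/+ and 12, 4 and 3 counts in Ddx41+/-, 36 in all. The genotypes overlapped, from 0 to 9 against 3 to 12 counts. Since only 1 sample was above the filter, Meg3 was not tested. Mir770, hosted in Meg3, had no count. Rian had at most 8 counts and Mirg at most 3, in 1 sample, and Rtl1 and Dio3 had none.

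Ndn (ENSMUSG00000033585, chromosome 7, 62346569 to 62350262) encodes necdin, a growth suppressor that restrains cycling of stem cells after injury. It had 45, 16, 10 and 28 counts in Ddx41+/+ and 20, 12 and 35 in Ddx41+/-. Its values of 1.09, 0.414, 0.316 and 0.774 CPM in Ddx41+/+ spanned those of 0.508, 0.356 and 0.789 CPM in Ddx41+/-. The log2 fold change was -0.23 (SE 0.60, 95% interval 0.353-fold to 2.05-fold, edgeR adjusted p = 0.925). It was 0.14 without Ddx41+/+ replicate 1 and -0.0070 without Ddx41+/- replicate 7, so no direction was held.

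Peg3 (ENSMUSG00000002265, chromosome 7, 6703892 to 6730431) encodes a zinc finger protein. It had no count in any of the 7 samples, which allows up to 0.0948 CPM in the shallowest library. Usp29, Zim1, Zim2 and Zim3, its imprinted neighbours, had no count either. In the annotation, no other gene shares exon bases with Peg3.

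**Figure D3:**
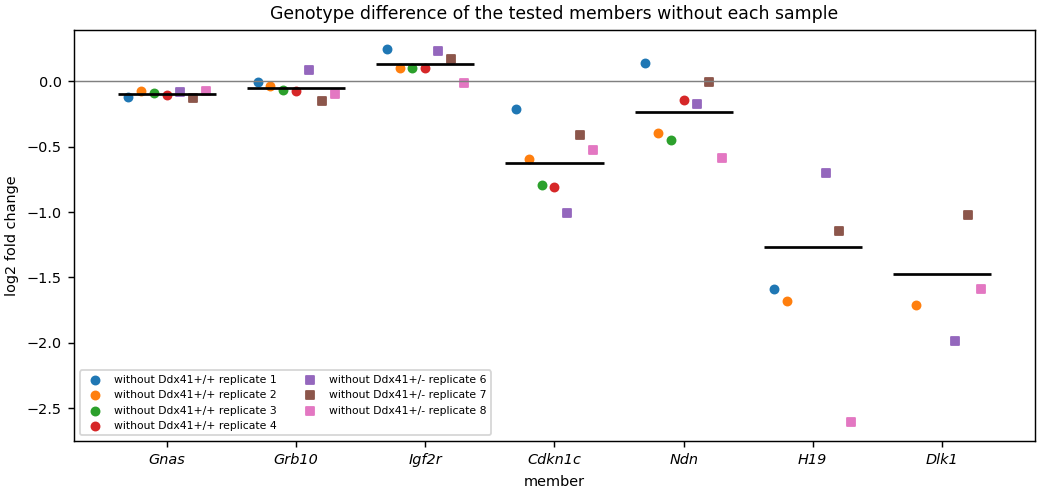
Log2 fold change (Ddx41+/- over Ddx41+/+) of the 7 tested genes with each sample left out in turn, as colored circles for Ddx41+/+ and squares for Ddx41+/- samples, and with all 7 samples as black bars. Gnas stays between -0.13 and -0.076, Grb10, Igf2r and Ndn have points on both sides of 0, and H19 and Dlk1 lack points where they fell under the filter.

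To see whether the domains around these genes differed, the other imprinted genes were read in the same fit. Of 66 listed, 65 had a row, 16 of them had no count in any sample, and 36 were tested. With edgeR, 0 of the 36 passed at an adjusted p under 0.05. At an unadjusted p under 0.05, 4 were higher and 2 lower in Ddx41+/- (16.7% in all), beside 5.7% higher and 4.93% lower over all genes. Their median log2 fold change was -0.029. DESeq2 called 2 of them, Slc22a3 and Gatm.

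Slc22a3, a transporter of organic cations in the Igf2r domain, had the smallest adjusted p. It was measured at 67.9, 64.8, 63.8 and 61.7 CPM in Ddx41+/+ and at 48.3, 44.1 and 55.9 CPM in Ddx41+/-, without overlap. The Ddx41+/- mean was 76.6% of the Ddx41+/+ mean (log2 fold change -0.38, SE 0.084, edgeR adjusted p = 0.0791). The adjusted p was 0.00721 with DESeq2, 0.0233 without the filter on low counts and 0.0576 to 0.303 when a sample was left out, the last without Ddx41+/- replicate 7. Airn, the noncoding RNA known to silence Igf2r on the paternal copy, had 0 to 15 counts per sample and was not tested. Its exons share no base with those of Igf2r. Slc22a2 had no count.

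In the domain of Cdkn1c, 10 of 11 neighbours were tested and none passed. Kcnq1ot1, the long noncoding RNA whose paternal transcript silences the domain in cis, had 668, 454, 448 and 720 counts in Ddx41+/+ and 590, 995 and 1419 in Ddx41+/-. Replicates 7 and 8 of Ddx41+/- were above all other samples and replicate 6 lay within the Ddx41+/+ range. Mean CPM was 15.5 ± 3.44 (SD, n = 4) and 25.5 ± 9.19 (SD, n = 3), a log2 fold change of 0.72 (SE 0.28, edgeR unadjusted p = 0.0317, adjusted p = 0.409). The call depended on 1 library, as the edgeR adjusted p was 0.0332 without Ddx41+/- replicate 6 and 0.780 without replicate 7. Its annotated transcript is a single unspliced stretch of 93.1 kb within Kcnq1, so reads from either strand cannot be told apart where strand was not used. Kcnq1 itself had 15 counts in Ddx41+/+ replicate 1, 1 count in Ddx41+/- replicate 8 and 0 in the other samples. Tssc4 was at 51.2 ± 0.875 CPM (SD, n = 4) and 42.4 ± 3.92 CPM (SD, n = 3), without overlap (log2 fold change -0.27, edgeR adjusted p = 0.242, and 0.607 without Ddx41+/- replicate 7).

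**Figure D4:**
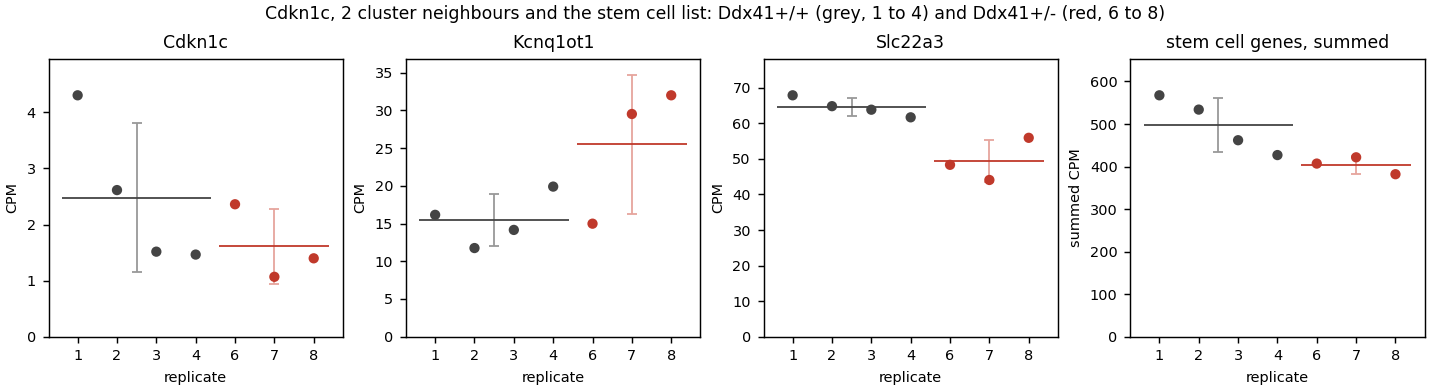
CPM of Cdkn1c, Kcnq1ot1 and Slc22a3 and the summed CPM of the 15 stem cell genes in each sample, Ddx41+/+ in grey (1 to 4) and Ddx41+/- in red (6 to 8), with lines for the means, error bars for the SD and axes from 0. Slc22a3 and the stem cell genes are separate between genotypes (61.7 to 67.9 against 44.1 to 55.9 CPM for Slc22a3), whereas Cdkn1c and Kcnq1ot1 overlap.

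The other domains had few expressed genes. Around Ndn, 4 of 7 neighbours were tested. Ube3a, a ubiquitin ligase, was at 55.3 ± 4.2 CPM (SD, n = 4) and 65.4 ± 11.2 CPM (SD, n = 3), with a log2 fold change of 0.24 (edgeR unadjusted p = 0.0296, adjusted p = 0.404). Peg12 was at 3.58 ± 0.132 and 2.96 ± 0.166 CPM, without overlap (edgeR adjusted p = 0.710). Magel2, Snrpn and Snurf had no count. The exons of Snurf lie wholly within those of Snrpn, so reads assigned to neither may be missing from both rows. In the domain of Dlk1 and Meg3, Begain was the 1 gene tested, at 1.45 ± 0.434 and 1.16 ± 0.239 CPM (edgeR adjusted p = 0.827). Nespas, the antisense RNA of Gnas, had 7, 9, 4 and 3 counts in Ddx41+/+ and 2, 32 and 6 counts in Ddx41+/-, its highest in Ddx41+/- replicate 7, and was not tested. Ddc and Cobl beside Grb10 had at most 9 and 5 counts. In other clusters 20 genes were tested, and Gatm (creatine synthesis) was at 153 ± 9.2 CPM (SD, n = 4) and 182 ± 4.7 CPM (SD, n = 3). Its adjusted p was 0.147 with edgeR, 0.0271 with DESeq2 and 0.417 with edgeR without Ddx41+/- replicate 7. For Htr2a the log2 fold change was 0.85 (edgeR adjusted p = 0.322).

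**Figure D5:**
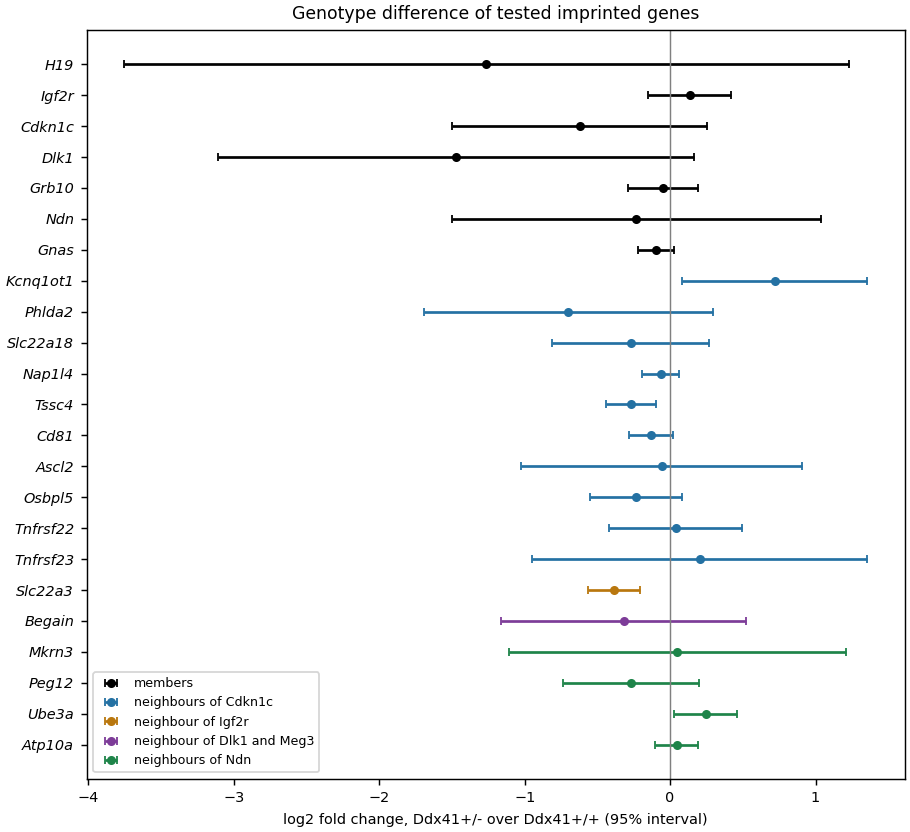
Log2 fold change (Ddx41+/- over Ddx41+/+) with its 95% interval for the 7 tested genes of the 10 (black) and the 16 tested imprinted neighbours, colored by domain. The intervals of the 7 genes all include 0, while those of Kcnq1ot1, Tssc4, Slc22a3 and Ube3a do not before adjustment.

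The pathways on which these genes act were read last, from lists of 102 genes, of which 91 were tested. With edgeR, 0 passed at an adjusted p under 0.05, 6 were higher and 2 lower at an unadjusted p under 0.05 (8.79% in all, beside 10.6% of all genes), and the median log2 fold change was 0.014. DESeq2 called Creb1 alone (adjusted p = 0.0151, against 0.108 with edgeR and 0.321 with edgeR without Ddx41+/- replicate 7). Among the genes named from these lists, leaving out that sample moved Irs2 from 0.41 to 0.23, Cdk2 from -0.15 to -0.090 and Hspa8 from 0.17 to 0.12 on the log2 scale.

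In the IGF pathway 17 genes were tested. Levels per exon length set Igf2r beside its signaling counterparts, at 2.35 CPM per kb against 9.84 ± 0.731 for Igf1r and 4.81 ± 0.356 for Insr (SD, n = 7). The ligand Igf1 was measured at 0.564 to 1.63 CPM. Among the adaptors Grb2 was at 83.6 CPM per kb, Grb10 at 3.33, and its relatives Grb14 and Grb7 at 0.135 and 0.0955. Igf1r, the target of miR-675, was at 166.5 ± 11.1 CPM (SD, n = 4) and 163.5 ± 16.1 CPM (SD, n = 3), with an interval of 0.88-fold to 1.1-fold (edgeR adjusted p = 0.935). The smallest p were those of the insulin receptor substrate Irs2 (log2 fold change 0.41, edgeR adjusted p = 0.408) and of Grb2 (-0.10, edgeR adjusted p = 0.561).

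Among CDK inhibitors, G1 kinases, pocket proteins and FOXO factors, 20 of 20 were tested. Cdkn1c was the lowest of the Cip/Kip inhibitors, at 1.03 CPM per kb against 4.18 ± 0.38 for Cdkn1a (p21) and 6.97 ± 0.374 for Cdkn1b (p27) (SD, n = 7), without overlap of the sample ranges. Between genotypes Cdkn1b had an interval of 0.875-fold to 1.14-fold (edgeR adjusted p = 0.993) and Cdkn1a of 0.833-fold to 1.21-fold (edgeR adjusted p = 0.992). Hspa8, the chaperone that holds cyclin D1 in the cytoplasm together with p57, was at 1783 ± 60.0 CPM (SD, n = 4) and 2007 ± 149 CPM (SD, n = 3), without overlap (log2 fold change 0.17, edgeR adjusted p = 0.336). Cdk2 was at 137 ± 4.47 and 124 ± 9.21 CPM (edgeR adjusted p = 0.451).

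Of Notch receptors, ligands and targets, to which Dlk1 is related, 10 of 14 were tested and 0 reached an unadjusted p of 0.05. Dtx4 and Notch3 came nearest, with edgeR adjusted p-values of 0.479 and 0.723. In the cAMP pathway of Gnas, 27 of 28 were tested. Among alpha subunits the inhibitory Gnai2 was at 188 ± 6.31 CPM per kb, Gnas at 54.9 and Gnaq at 9.3 ± 0.662 (SD, n = 7). The joined exons span 3.78 kb for Gnai2 and 11.2 kb for Gnas, and the gap between these 2 rests largely on that length. Creb1, the factor that cAMP signaling activates, was at 98.1 ± 4.09 CPM (SD, n = 4) and 119 ± 7.27 CPM (SD, n = 3), and Pde4b, a phosphodiesterase that degrades cAMP, at 41.2 ± 0.383 and 34.6 ± 3.08 CPM (edgeR adjusted p = 0.300). Neither gene overlapped between genotypes. Of factors that keep or write imprints, 17 of 18 were tested and 3 had an unadjusted p under 0.05 (17.6%), all higher in Ddx41+/-, beside 5.7% of all genes, but none passed the adjustment. The lowest p among them were those of the zinc finger gene Zfp568 (log2 fold change 0.22, edgeR adjusted p = 0.300) and the chromatin protein Smchd1 (0.17, edgeR adjusted p = 0.403). Ctcf, which insulates the H19 and Igf2 domain, had an interval of 0.93-fold to 1.1-fold, and the maintenance methyltransferase Dnmt1 of 0.955-fold to 1.17-fold (edgeR adjusted p = 0.957 and 0.728).

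Genes with the most similar pattern over the 7 samples were sought among 12528 candidates for the 4 members of at least 1 CPM. For Igf2r these were Gpatch8, Nsd1 and Wdfy3, with Pearson's r of log2 CPM of 0.992, 0.985 and 0.983. Cdkn1c was nearest to Map4k4, Lrrc14 and Fam168b (0.966, 0.963 and 0.962), Grb10 to Agpat4, Reep6 and Gp9 (0.981, 0.966 and 0.955), and Gnas to Ypel1, Il2rg and Cyp4v3 (0.956, 0.952 and 0.948). With 7 points such values are common, since 109 genes were above 0.9 for Igf2r, 49 for Cdkn1c, 30 for Grb10 and 32 for Gnas. The points share libraries and their depths, and the r values are a description.

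Markers of other cells varied beside these genes. The late erythroid genes Hba-a1, Hba-a2, Hbb-bs and Hbb-bt had no count, and the 8 genes of that list summed to 59 to 112 CPM in Ddx41+/+ and 99.9 to 112 CPM in Ddx41+/-. The 8 B-lineage genes with a row summed to 88.5 to 184 CPM and 93.0 to 417 CPM, the highest in Ddx41+/- replicate 7. Jchain held 64.2% of these sums, with 346 CPM in that sample, and the other 7 genes summed to 38.8 to 55.6 CPM and 52.1 to 70.5 CPM. All 8 had a positive log2 fold change, beside 6512 of 13340 genes tested. Of the 8, 3 had an unadjusted p under 0.05 (37.5%, beside 5.7% of all genes higher), with 0 past the adjustment. The 10 T and NK cell genes summed to 239 to 290.0 CPM and 266 to 297 CPM, of which Nkg7 alone held 93.9%. Without Nkg7 the sums were 17.2 to 17.8 CPM and 15.2 to 16.8 CPM, without overlap, and Cd3e had a count in only 3 samples. The 10 genes of stroma and endothelium, tissues in which H19, Igf2 and Dlk1 can be expressed, summed to 173 to 199.5 CPM and 186 to 201.3 CPM, overlapping between genotypes. Pecam1, which blood cells also express, held 77.0% of these sums, and the other 9 genes summed to 39.8 to 45.4 CPM and 32.5 to 63.5 CPM. At an unadjusted p under 0.05, 1 gene was higher (Sparc) and 2 lower (Pdgfrb and Cdh5), and 0 passed the adjustment. Over all genes tested, 5.7% were higher and 4.93% lower at that threshold. All 10 were detected, with Col1a1 at 0.822 to 2.2 CPM in Ddx41+/+ and 1.47, 1.66 and 14.9 CPM in Ddx41+/-, and Col1a2 at 3.23 to 5.03 CPM in Ddx41+/+ and 3.94, 4.63 and 16.8 CPM in Ddx41+/-. The part of any of these cells in the values of the imprinted genes was not tested.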

How the data were processed

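Poly(A) RNA of LSK cells was sequenced in 7 samples, each from a recipient mouse. The deposited values are raw counts of reads for each gene symbol. The submitters' processing notes name FastQC 0.11.7, HISAT2 2.0.5, featureCounts 1.5.2 and the mm10 build. The library kit is given as a stranded and as an unstranded one, and neither the strand setting nor the counting of single reads or pairs is stated. The name of the count table says that library 5, of the Ddx41+/- group, was taken out. No reason is stated, and that library is not analysed here. All sample columns were used.

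Genotypes were compared in R 4.3.3 with edgeR 4.0.16 (quasi-likelihood test with robust estimation, TMM scaling, filterByExpr, which asked for 0.259 CPM in at least 3 samples) over 13340 of 24421 symbols, with Benjamini-Hochberg adjustment over all of them and a threshold of 0.05. Standard errors are the size of the log2 fold change divided by the root of the F statistic, and 95% intervals use the total degrees of freedom. CPM used TMM-scaled totals, and log2 CPM a prior count of 2. The floor for 0 is 3 counts, which covers counting error only. The common biological coefficient of variation was 12.9%. Single values per sample were compared by an exact permutation test over 35 splits, whose smallest p is 0.0286. Alternatives were DESeq2 1.42.0, limma-voom 3.58.1 with and without sample quality weights, other scalings, no filter, a non-robust fit and each sample left out. The code was tested on simulated data.

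Genes named were the 10 members, Ddx41, from each list those past the threshold and the next 2 by p, and the 3 genes most similar to each member of at least 1 CPM. Genes named for a level or an interval alone, and those without enough counts, are outside this rule. Of marker lists, genes short of the threshold enter mainly through the sums. Members and lists were chosen with earlier results of these data known. Positions and exon lengths came from GENCODE M21 (GRCm38), and promoters and microRNAs from RefSeq (GRCm38.p6). The smallest chi-square per gene between 2 samples was 13.7, so no pair of libraries agreed within sampling noise.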

Additional observations from a re-analysis of the deposited data

Results flagged for a closer look

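Igf2r in Ddx41+/+ had a sample far from the others. Replicate 1 was at 25.7 CPM and the next sample at 19.6 CPM, so the gap held 0.969 of the whole range of the 4 samples, above the Dixon critical value of 0.829. The ratio was 0.979 with median-of-ratios scaling and 0.931 with library totals only. Of 9 imprinted genes with counts, 1 was singled out in this way, where chance gives 0.45. Dlk1 came near, at 0.803, and passed at 0.847 with library totals only. Without Ddx41+/+ replicate 1 the log2 fold change of Igf2r was 0.25 (edgeR unadjusted p = 0.0673, adjusted p = 0.483).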

How the results depend on the processing

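None of the 10 imprinted genes was called in any of the 15 alternative fits in which it was tested. Dlk1 was tested in 12 and H19 in 13 of them. DESeq2 is counted among these but gave no adjusted p for Dlk1 and H19, so neither could be called there. The direction was reversed for Igf2r without Ddx41+/- replicate 8 (-0.013), for Grb10 without Ddx41+/- replicate 6 (0.090) and for Ndn without Ddx41+/+ replicate 1 (0.14) and with limma-voom and quality weights (0.098). With samples left out, Cdkn1c ranged from -1.01 to -0.21, Dlk1 from -1.99 to -1.03, H19 from -2.61 to -0.70, Gnas from -0.13 to -0.076, Igf2r from -0.013 to 0.25, Grb10 from -0.15 to 0.090 and Ndn from -0.58 to 0.14 on the log2 scale. H19 was at -0.076 with limma-voom and quality weights. Over all genes, 29 calls became 15 with library totals only, 91 without the filter, 164 with DESeq2, 10 with limma-voom, 14 with the non-robust fit, and 7 (without Ddx41+/+ replicate 2) to 41 (without Ddx41+/+ replicate 1) with samples left out. It was 16 without Ddx41+/+ replicate 3, 14 without Ddx41+/- replicate 7 and 9 without Ddx41+/- replicate 8. Of the imprinted and pathway lists, 0 genes were called in the fit reported, 1 without the filter (Slc22a3), 3 with DESeq2 (Slc22a3, Gatm and Creb1), and 0 to 1 with samples left out (Kcnq1ot1, without Ddx41+/- replicate 6). The causes were not tested. Ddx41 passed in all 15 alternatives, with adjusted p up to 0.0324. No paired analysis was made, because no pairing of samples between genotypes is stated and the replicate numbers do not show one. Igf2 and Meg3 were tested only in the fit without the filter (adjusted p = 0.636 and 0.916 by edgeR), Peg3 had no count, and the intervals of H19, Dlk1, Ndn and Cdkn1c reach changes of over 2-fold.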
